A study of Komagataella pastoris with 4 samples.

Results

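The 7 genes described here turn acetaldehyde into acetyl-CoA, or are annotated as relatives of the enzymes that do. They are the aldehyde dehydrogenase (ALD) rows ALD6-1, ALD6-2, ALD4 and ALD2, the row ACIB2EUKG772538, and the acetyl-CoA synthetase (ACS) rows ACS1 and ACS2. They were chosen by gene identifier, 7 of 5427 rows of the count table, and all 7 passed the filter on low counts. RNA sequencing was done on the methylotrophic yeast Pichia pastoris, which is labelled Komagataella pastoris and was counted against the genome of K. phaffii. The mutant strain, Dmxr1, lacks the zinc finger transcription factor Mxr1p, since a marker for zeocin resistance interrupts its gene, MXR1. Its parent, GS115, carries an intact MXR1, and both strains are histidine auxotrophs. Cells of either strain were grown for 14 h on ethanol. The study describes duplicate cultures, and each strain gave 2 libraries, with 25524047 and 27988540 counts in Dmxr1 and 24140235 and 29402357 counts in GS115. The resistance cassette is present in Dmxr1 alone, and the study describes slower growth of that strain on ethanol. Loss of Mxr1p, the cassette and growth state cannot be told apart in these libraries. The comparison addresses how transcript levels on ethanol differ when Mxr1p is missing.

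Yeasts that use ethanol oxidise it in steps. Alcohol dehydrogenase makes acetaldehyde, an aldehyde dehydrogenase of the cytosol or the mitochondrion makes acetate, and an acetyl-CoA synthetase joins acetate to coenzyme A at the cost of ATP. Acetyl-CoA then enters the glyoxylate and tricarboxylic acid cycles. In Saccharomyces cerevisiae, Ald6p is the main cytosolic aldehyde dehydrogenase and depends on NADP and magnesium, Ald4p is the major mitochondrial form, and Acs1p and Acs2p are the acetyl-CoA synthetases.

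The annotation of the rows matched this division only in part. ALD6-1 (ACIB2EUKG773017, chromosome 4 by its locus tag) and ALD6-2 (ACIB2EUKG770944, chromosome 3) carried the same UniRef name, a magnesium-activated cytosolic aldehyde dehydrogenase. ALD4 (ACIB2EUKG770202, chromosome 2) shared with both the KEGG entry of an NAD-dependent aldehyde dehydrogenase, which 4 rows of the table carried, and its UniRef name gave no compartment. ALD2 (ACIB2EUKG770259, chromosome 2) had the entry of an enzyme that uses NAD or NADP. ACIB2EUKG772538 (chromosome 4) was named by UniRef as a mitochondrial aldehyde dehydrogenase, and KEGG placed it as methylmalonate-semialdehyde dehydrogenase, an enzyme of valine breakdown. ACS1 (ACIB2EUKG769911, chromosome 2) and ACS2 (ACIB2EUKG771575, chromosome 3) were the only 2 rows with the KEGG entry of acetyl-CoA synthetase. Start and end coordinates and gene lengths are not in the table. A count grows with transcript length, so counts and shares of counts were compared between strains, and not read as an order of levels among genes.

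Of the 7 rows, 3 were called lower and 0 higher in Dmxr1. The 3 were ALD6-1, ALD4 and ACIB2EUKG772538, all of them dehydrogenases. A call required an adjusted p of at most 0.05 in edgeR's quasi-likelihood test together with a log2 fold change of 1 or more in either direction. Over all 5425 rows tested, 3.26% were called lower and 0.535% higher. At an unadjusted p of at most 0.05, 3 members were lower and 1 higher, against 18.5% and 13.5% of all rows tested. DESeq2 made the same 3 lower and 0 higher calls. Over the 7 rows the log2 fold changes had a median of -0.089, against 0.0041 over all rows tested. The 5 dehydrogenases ranged from -5.42 to 0.43 with a median of -1.36, and the 2 synthetases had 0.035 and 0.83. The calls of the 7 rows were the same when any single library was left out, although each such fit leaves 1 strain with a single library that is assumed to vary like the other strain. With 2 libraries per strain the spread within a strain is estimated with little information. In bulk RNA a lower count can mean fewer expressing cells or less RNA per cell, which cannot be told apart.

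**Figure D1:**
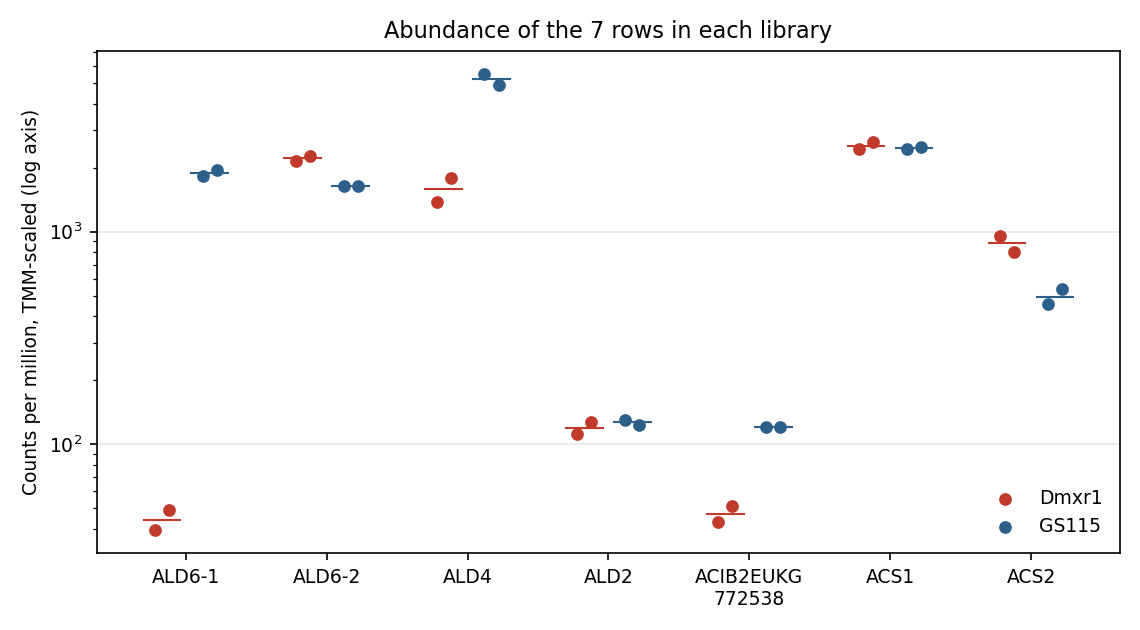
CPM (counts per 1000000 counts of a library, scaled by the trimmed mean of M-values, log axis) of the 7 rows in each library, Dmxr1 in red left of GS115 in blue, with a line at the mean of each pair. ALD6-1, ALD4 and ACIB2EUKG772538 lay lower in both Dmxr1 libraries, ALD6-2 and ACS2 lay higher, and the strains overlapped for ALD2 and ACS1.

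The family as a whole took a smaller part of the mutant's reads. The 7 rows summed to 190941 and 218124 counts in Dmxr1 replicates 1 and 2, and to 260650 and 367942 counts in GS115 replicates 1 and 2. These were 0.748% and 0.779% of all counts in Dmxr1, against 1.08% and 1.25% in GS115. In CPM, counts per 1000000 counts of a library scaled by the trimmed mean of M-values (TMM), the sum was 7108 and 7737 in Dmxr1 and 12180 and 11760 in GS115. The mean in Dmxr1, 7422 ± 444 CPM, was 62.0% of the mean in GS115, 11970 ± 297 CPM (SD, n = 2 each). The strains did not overlap. No test was made of the sums, because an exact two-sided permutation test of 2 against 2 libraries cannot give a p below 0.333.

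The dehydrogenases accounted for the smaller sum. Together the 5 dehydrogenase rows had 3714 and 4291 CPM in Dmxr1 and 9263 and 8731 CPM in GS115, so that the mutant's mean was 44.5% of that of GS115. The 2 synthetase rows had 3394 and 3445 CPM in Dmxr1 and 2918 and 3030 CPM in GS115. Of the summed difference of -4548 CPM, ALD4 contributed -3642 CPM and ALD6-1 -1844 CPM. The other rows that were lower were ACIB2EUKG772538 with -73.3 CPM and ALD2 with -7.61 CPM. In the other direction ALD6-2 contributed 573 CPM, ACS2 385 CPM and ACS1 60.9 CPM. Without ALD6-1 and ALD4, the sum of the remaining 5 rows was 5695 and 5900 CPM in Dmxr1, above the 4810 and 4908 CPM of GS115.

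The make-up of the family's counts differed accordingly. ALD6-1 held 0.554% (95% Wilson interval 0.522% to 0.588%) and 0.633% (0.600% to 0.667%) of the 7 rows' counts in Dmxr1. In GS115 it held 15.0% (14.8% to 15.1%) and 16.6% (16.5% to 16.7%). ALD4 held 19.3% and 23.1% in Dmxr1 and 45.5% and 41.7% in GS115. It held more of the family's counts than any other row in GS115, whereas in both Dmxr1 libraries ACS1 and ALD6-2 held more. ACS1 held 34.3% and 34.1% in Dmxr1 and 20.2% and 21.2% in GS115. ALD6-2 held 30.2% and 29.4% in Dmxr1 and 13.5% and 13.9% in GS115, and ACS2 held 13.4% and 10.4% in Dmxr1 and 3.74% and 4.56% in GS115. The shares of ALD2 and ACIB2EUKG772538 stayed small, at 1.58% and 1.64% for ALD2 in Dmxr1 and 1.07% and 1.05% in GS115. ACIB2EUKG772538 held 0.603% and 0.662% in Dmxr1 and 0.989% and 1.02% in GS115. No interval of these shares was wider than 0.426 percentage points, and the intervals cover counting error only. Shares add up to the whole, so a smaller share of ALD4 and ALD6-1 raises those of the others whether or not their own level differs.

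**Figure D2:**
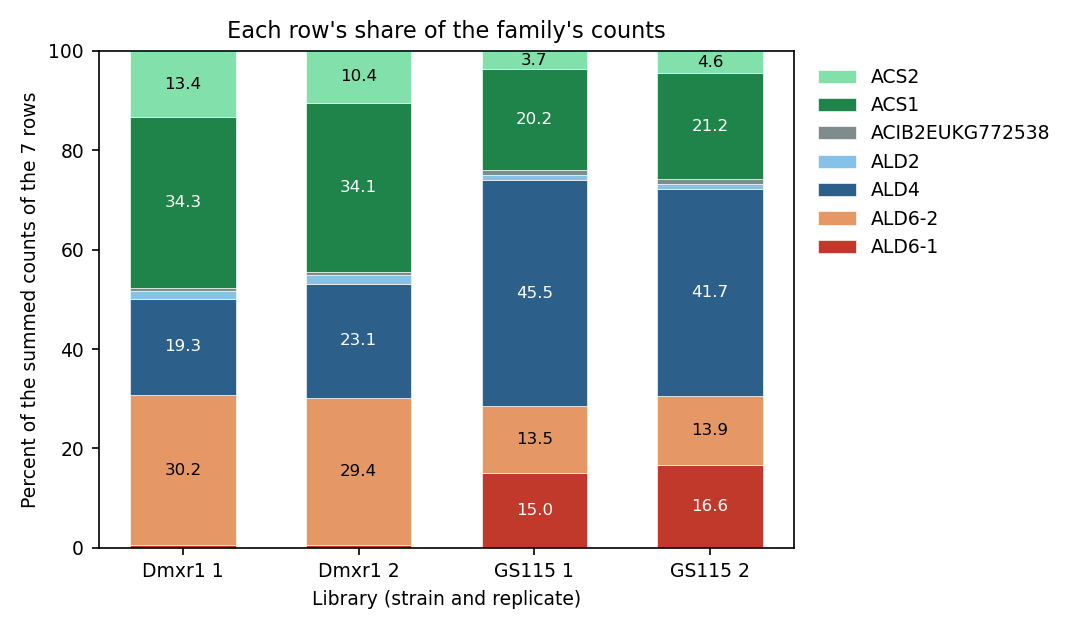
Percent of the summed counts of the 7 rows held by each row, as stacked bars for the 2 Dmxr1 libraries and the 2 GS115 libraries. ALD6-1 held 0.554% and 0.633% of the counts in Dmxr1 against 15.0% and 16.6% in GS115, and ALD4 held 19.3% and 23.1% in Dmxr1 against 45.5% and 41.7% in GS115.

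Among the 5 dehydrogenases alone, ALD6-2 averaged 55.4% ± 3.34 of the counts in Dmxr1 and 18.2% ± 0.707 in GS115 (SD, n = 2 each). ALD4 averaged 39.3% ± 3.30 in Dmxr1 and 58.0% ± 2.66 in GS115. ALD6-1 averaged 1.10% ± 0.0567 in Dmxr1 and 21.0% ± 1.90 in GS115. The pair ALD6-2 and ALD4 thus held most of the dehydrogenase counts of both strains, with ALD6-2 ahead in the mutant and ALD4 in GS115.

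ALD6-1, one of the 2 rows annotated as the cytosolic enzyme, had 1058 and 1380 counts in Dmxr1 and 39027 and 61114 counts in GS115. These corresponded to 39.4 and 48.9 CPM in Dmxr1 and 1824 and 1953 CPM in GS115. The strains lay far apart beside the spread within each. The row was 42.8-fold lower in Dmxr1 (95% interval 29.5-fold to 62.0-fold; log2 fold change -5.42, SE 0.25, edgeR adjusted p = 3.02e-09), the lowest log2 fold change of the 5425 rows tested. Its level in the mutant was 2.34% of that in GS115. When each library was left out in turn, the log2 fold change ranged from -5.58 to -5.27. How reads that align to more than 1 gene were counted is not given in the sources used here. Reads shared with ALD6-2 therefore cannot be told apart from reads of ALD6-1. Their part in the counts was not tested.

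ALD6-2, the other row with the cytosolic annotation, was not called. It had 57635 and 64178 counts in Dmxr1 and 35120 and 51132 counts in GS115. Its 2146 and 2276 CPM in Dmxr1 lay above the 1641 and 1634 CPM in GS115. The log2 fold change was 0.43 (95% interval -0.02 to 0.89, adjusted p = 0.174), which leaves a range from no difference to a level 1.85-fold higher. The difference in CPM between the strain means was 573 for ALD6-2 against -1844 for ALD6-1. Their sum was 2185 and 2325 CPM in Dmxr1 and 3465 and 3588 CPM in GS115, so that both rows together averaged 64.0% of the GS115 mean in the mutant.

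Within single libraries, where scaling plays no part, the ratio of ALD6-1 counts to ALD6-2 counts was 0.0184 and 0.0215 in Dmxr1 and 1.11 and 1.20 in GS115. The difference in mean log2 ratio, Dmxr1 minus GS115, was -5.86. Rows of nearly equal counts in GS115 were thus far apart in the mutant.

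ALD4, the homologue by name of the major mitochondrial enzyme of S. cerevisiae, had 36912 and 50409 counts in Dmxr1 and 118691 and 153277 counts in GS115. Its 1374 and 1788 CPM in Dmxr1 did not overlap the 5547 and 4899 CPM in GS115. It was 3.30-fold lower in Dmxr1 (95% interval 2.31-fold to 4.72-fold; log2 fold change -1.72, SE 0.24, adjusted p = 0.000402) and ranked 21st from the lowest of all rows tested. Leaving out each library gave log2 fold changes from -1.93 to -1.55. DESeq2 on the same counts also called ALD4 lower (log2 fold change -1.72, DESeq2 adjusted p = 2.49e-15). By quantitative PCR, another measure of transcript level, the study reported another ALD gene alone as lower in the mutant on ethanol, and not this gene. The counts used here come from the study's own RNA sequencing, so the difference lies between sequencing and quantitative PCR. The cause of the difference was not tested. ALD6-1 fell more than ALD4. The log2 ratio of ALD6-1 to ALD4 counts was -5.12 and -5.19 in Dmxr1 and -1.60 and -1.33 in GS115, a mean difference of -3.69 that was not tested.

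ALD2, the row annotated for NAD or NADP, was the dehydrogenase with the least difference between strains. It had 3013 and 3582 counts in Dmxr1 and 2795 and 3874 counts in GS115. Its 112 and 127 CPM in Dmxr1 overlapped the 131 and 124 CPM in GS115. The log2 fold change was -0.089 (95% interval -0.45 to 0.27, adjusted p = 0.749). A level more than 1.37-fold lower or 1.21-fold higher thus lay outside the interval. The count ratio of ALD4 to ALD2 was 12.3 and 14.1 in Dmxr1 and 42.5 and 39.6 in GS115.

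The part of ACIB2EUKG772538 in ethanol use is uncertain, because its KEGG entry is an enzyme of valine breakdown. It had 1152 and 1443 counts in Dmxr1 and 2579 and 3761 counts in GS115. Its 42.9 and 51.2 CPM in Dmxr1 lay below the 121 and 120 CPM in GS115. It was 2.56-fold lower (95% interval 1.98-fold to 3.30-fold; log2 fold change -1.36, SE 0.17, adjusted p = 0.000180) and ranked 57th from the lowest. Leaving out each library gave log2 fold changes from -1.49 to -1.23. After TMM scaling, with factors of 0.886 and 1.06, GS115 replicates 1 and 2 differed by less than 1 CPM for this row.

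ACS1, an acetyl-CoA synthetase, had 65532 and 74375 counts in Dmxr1 and 52693 and 78006 counts in GS115. The strains overlapped, with 2440 and 2638 CPM in Dmxr1 and 2462 and 2493 CPM in GS115. The log2 fold change was 0.035 (95% interval -0.43 to 0.50, adjusted p = 0.929), and its sign turned to -0.023 without Dmxr1 replicate 2. The interval reaches from a level 1.35-fold lower to one 1.41-fold higher in the mutant. The larger share of ACS1 in the family's counts of Dmxr1 therefore went with a level whose difference between strains was within the spread of the libraries.

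ACS2, the other acetyl-CoA synthetase, was higher in both mutant libraries without reaching the fold threshold. It had 25639 and 22757 counts in Dmxr1 and 9745 and 16778 counts in GS115. Its 954 and 807 CPM in Dmxr1 lay above the 455 and 536 CPM in GS115. The log2 fold change was 0.83 (95% interval 0.39 to 1.27, adjusted p = 0.0142), or 1.78-fold, and ranked 74th from the highest. At the adjusted p alone, without the fold threshold, 5.07% of all rows tested were higher in Dmxr1. ACS2 missed the adjusted p without GS115 replicate 1 (log2 value 0.71, adjusted p = 0.0642), without Dmxr1 replicate 1 (0.70, adjusted p = 0.167) and with the replicate block (0.83, adjusted p = 0.0576). ACS2 made up 28.1% and 23.4% of the counts of the synthetase pair in Dmxr1 and 15.6% and 17.7% in GS115. The log2 ratio of ACS2 to ACS1 counts was -1.35 and -1.71 in Dmxr1 and -2.43 and -2.22 in GS115, with no overlap between strains.

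**Figure D3:**
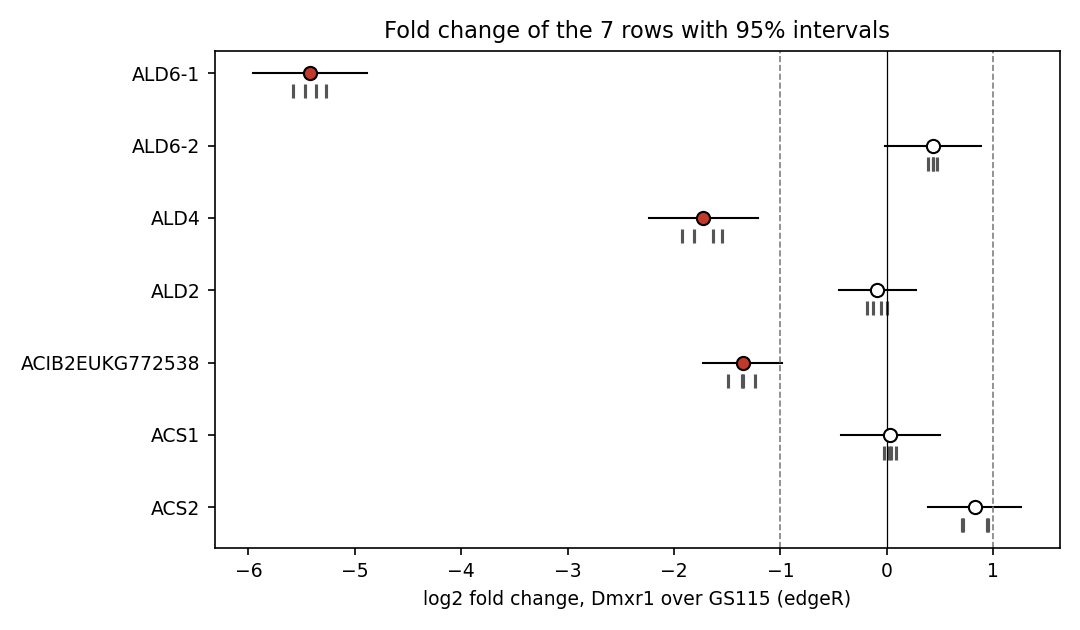
Log2 fold change (Dmxr1 over GS115) of the 7 rows from edgeR with its 95% interval as a bar, red where called and open where not, and the values with each library left out as ticks under it. Dashed lines mark a log2 fold change of -1 and 1. Only ALD6-1, ALD4 and ACIB2EUKG772538 lay below -1, with or without any library.

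In all, both Dmxr1 libraries lay below both GS115 libraries for 3 of the 7 rows, above them for 2, and overlapped for 2. Over all rows tested, 31.3% lay below and 31.1% above in this sense, so that such separation on its own was frequent in the comparison. Most alike over the 4 libraries were ACS1 and ALD2, whose centred log2 CPM lay a Euclidean distance of 0.150 apart. ALD4 and ACIB2EUKG772538 lay 0.404 apart, against 3.70 for ALD4 and ALD6-1.

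The rows outside the family with the pattern most like ALD6-1 by the same distance were ACIB2EUKG768522, ACIB2EUKG771395 and ACIB2EUKG771115. ACIB2EUKG768522, described as a membrane protein of ammonia export but named an acetate transporter by UniRef, had 67.7 and 65.0 CPM in Dmxr1 and 800 and 722 CPM in GS115 and lay at a distance of 1.93. ACIB2EUKG771395, described as a peroxisomal pyrophosphatase acting on coenzyme A, had 32.0 and 43.2 CPM in Dmxr1 and 362 and 342 CPM in GS115. ACIB2EUKG771115, described as the putative regulator YLL054C, lay at a distance of 2.76. These distances are large because no other row fell as far as ALD6-1. For ALD4 the closest were ACIB2EUKG770041, a VanZ-like protein, at 0.0908, the formate dehydrogenase ACIB2EUKG771003 at 0.241 and the PQ-loop protein ACIB2EUKG767947 at 0.280. Formate dehydrogenase takes part in methanol oxidation. It had 43.2 and 50.2 CPM in Dmxr1 and 187 and 135 CPM in GS115. All 6 rows were called lower, as their choice by likeness to ALD6-1 and ALD4 largely fixed.

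For the steps before and beside the family, a list of 22 other rows matched the annotation terms for alcohol dehydrogenase (11 rows), aldehyde dehydrogenase (7), pyruvate decarboxylase (3) and acetyl-CoA hydrolase (1). Of these, 0 were called lower and 0 higher by edgeR or by DESeq2, which in a list of this size is near the 3.26% and 0.535% of all rows tested. At edgeR's unadjusted p of at most 0.05, 2 were lower and 5 higher, against 18.5% and 13.5% of all rows tested. At the adjusted p alone, 1 was lower and 2 were higher, against 10.5% and 5.07%. The median log2 fold change was 0.24, against 0.0041 over all rows tested. The annotation of 9 of the 22 named another function, and without them the median was 0.30.

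The alcohol dehydrogenase ACIB2EUKG770237, ADH2 by its UniRef name, had 7548 and 10149 CPM in Dmxr1 and 15878 and 10925 CPM in GS115. Dmxr1 over GS115 gave a log2 value of -0.60 (adjusted p = 0.152), with GS115 replicate 1 well above the other libraries. Without that library it was -0.31, and without GS115 replicate 2 it was -0.84 (adjusted p = 0.0372). The alcohol dehydrogenase ACIB2EUKG770414 had 3467 and 3474 CPM in Dmxr1 and 2125 and 2352 CPM in GS115 (log2 fold change 0.63, adjusted p = 0.0663). The acetyl-CoA hydrolase ACIB2EUKG771742, which in S. cerevisiae (Ach1p) acts on acetyl-CoA and acetate in mitochondria, had 890 and 914 CPM in Dmxr1 and 599 and 595 CPM in GS115. Its log2 fold change was 0.60 (adjusted p = 0.0516). ACIB2EUKG771742 and ACIB2EUKG770414 passed the adjusted p alone with DESeq2 (DESeq2 adjusted p = 0.00649 and 0.00417) and with library size alone (0.0196 and 0.0273). Upper-quartile scaling (0.0207 and 0.0314) and the replicate block with the replicate numbers of Dmxr1 exchanged (0.0373 and 0.0371) gave the same. In the other alternatives both rows stayed above 0.05. Pyruvate decarboxylase ACIB2EUKG771819, which makes acetaldehyde from pyruvate, had 2149 and 2351 CPM in Dmxr1 and 1924 and 2146 CPM in GS115 (log2 fold change 0.15, adjusted p = 0.677). For the phenylpyruvate decarboxylase ACIB2EUKG771927 the log2 fold change was 0.17 (adjusted p = 0.592).

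Of the 7 other rows matched as aldehyde dehydrogenases, the 2 with the highest mean CPM were enzymes of amino acid synthesis. The log2 fold change was -0.05 for gamma-glutamyl phosphate reductase (ACIB2EUKG772331, adjusted p = 0.895), with a sign that turned to 0.020 with upper-quartile scaling and 0.040 with library size alone. For aspartate-semialdehyde dehydrogenase (ACIB2EUKG771504) it was 0.47 (adjusted p = 0.110). The following 4 rows were named only after their values were seen. ACIB2EUKG768628, the remaining row with the KEGG entry of ALD6-1, ALD6-2 and ALD4, had 355 and 364 CPM in Dmxr1 and 344 and 371 CPM in GS115, with a log2 fold change of 0.01 (adjusted p = 0.980). ACIB2EUKG772788, described as an aldehyde dehydrogenase with an uncharacterised UniRef entry, had 196 and 234 CPM in Dmxr1 and 350 and 326 CPM in GS115. Its adjusted p of 0.0312 passed while its log2 fold change of -0.65 missed the fold threshold. The adjusted p was above 0.05 without GS115 replicate 1, Dmxr1 replicate 1 or Dmxr1 replicate 2 (0.0814, 0.320 and 0.0581), with the replicate block (0.0819) and with library size alone (0.0515). The alcohol dehydrogenases ACIB2EUKG772019 (log2 fold change 0.70, adjusted p = 0.0147) and ACIB2EUKG772420 (0.62, adjusted p = 0.0327) also passed the adjusted p alone. ACIB2EUKG772019 missed it without Dmxr1 replicate 1 (0.205). ACIB2EUKG772420 did not pass without GS115 replicate 2, Dmxr1 replicate 1 or Dmxr1 replicate 2 (0.113, 0.0617 and 0.211), nor did it pass with the replicate block (0.0885).

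**Figure D4:**
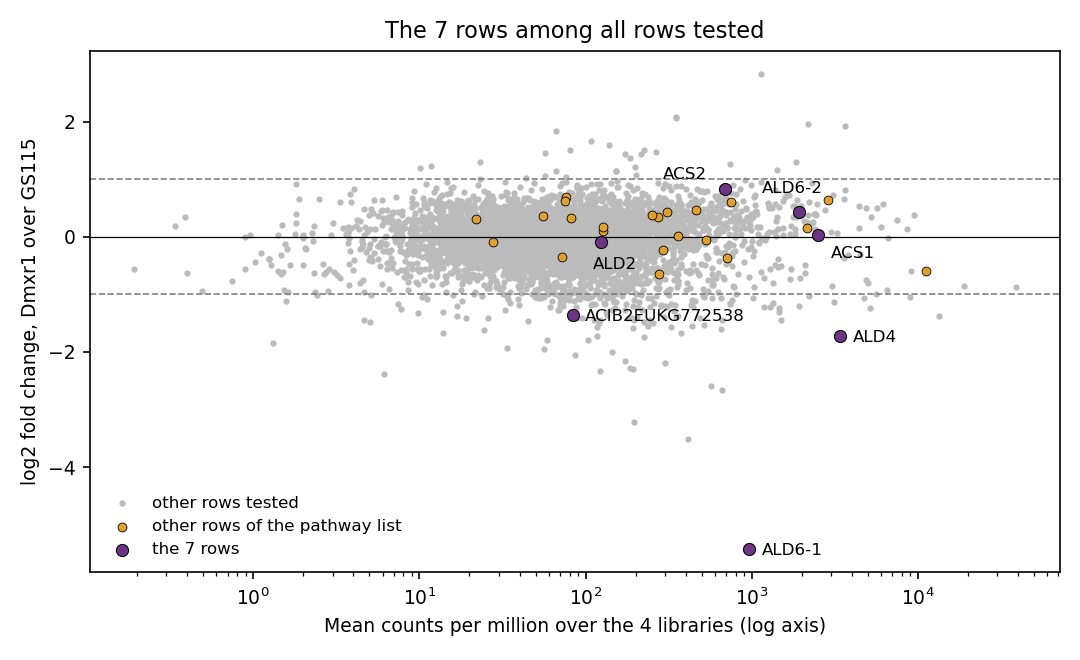
Log2 fold change (Dmxr1 over GS115) against the mean CPM over the 4 libraries (log axis) for all 5425 rows tested in grey, the 22 other rows of the pathway list in orange and the 7 rows of the family in purple. ALD6-1 lies lowest of all rows, ALD4 and ACIB2EUKG772538 below the dashed line at -1, and the pathway list between the lines at -1 and 1.

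The targeted gene did not check the labels. The MXR1 row, ACIB2EUKG772516, had 206 and 258 CPM in Dmxr1 and 287 and 405 CPM in GS115 (log2 fold change -0.58, adjusted p = 0.0787). Which part of the gene these reads come from was not examined. Reads of any stretch left beside the cassette would enter this count, which was not tested. The level of this row therefore neither checks nor contradicts the strain names.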

How the data were processed

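Libraries were made from RNA depleted of ribosomal RNA. The submitters' processing notes name bcl2fastq 2.19.0.316, fastp 0.19.6, Bowtie2 and featureCounts 1.6.4. The authors deposited unnormalized read counts for each gene. Whether counting used strand is not given in the sources used here. Reads of overlapping or antisense genes may therefore be mixed. Columns of per-sample values with no matching sample numbered 0.

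Testing was limited to the 5425 of 5427 rows that reached 5 counts in 2 or more libraries. Dmxr1 was compared with GS115 in edgeR 4.0.16 under R 4.3.3, by its quasi-likelihood test after TMM scaling, with p-values adjusted by Benjamini-Hochberg over all rows tested, and every adjusted p comes from it unless another tool is named. The SE was derived from the log2 fold change and the F statistic, and the 95% interval uses the moderated degrees of freedom. DESeq2 1.42.0, other scalings and filters, a replicate block and the omission of each library were alternatives.

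ALD names came from UniProt entries listed by the study, and ACS names through the descriptions. Other rows of the pathway were matched by the words alcohol dehydrogenase, aldehyde dehydrogenase, pyruvate decarboxylase, acetyl-CoA hydrolase and acetyl-CoA synthetase in the description, UniRef name or KEGG entry. Named rows were MXR1, the 7 rows, called rows of that list and up to 2 per class with the highest mean CPM, and the 3 rows nearest to ALD6-1 and to ALD4 in log2 CPM (prior count 2) centred per gene. The members and lists were chosen with earlier results of these data known. The edgeR p-values set the strain difference against a spread between libraries that is moderated across the rows tested.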

Additional observations from a re-analysis of the deposited data

How the results depend on the processing

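Over 12 alternatives, 2 of them with a replicate block, all 84 calls of the 7 rows were as reported, and 83 of 84 signs. The exception was ACS1, which ranged from -0.023 (without Dmxr1 replicate 2) to 0.090 when single libraries were left out. Among the named rows of the pathway list, the sign also turned for 3, and the other rows of the list were not followed over the alternatives. ACIB2EUKG772331 had 0.020 with upper-quartile scaling and 0.040 with library size alone, and its values without single libraries ranged from -0.25 to 0.15. Without single libraries ACIB2EUKG771927 ranged from -0.051 to 0.39 and ACIB2EUKG768628 from -0.048 to 0.064. The cause was not tested. Without single libraries the rows called lower numbered 94 to 290 and those called higher 23 to 56, against 177 and 29.

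The labels do not say that a shared replicate number marks a shared culture. Differences between replicates 1 and 2 correlated at -0.14 between the strains. With the replicate block 151 rows were called lower and 28 higher, and with the numbers of Dmxr1 exchanged, a pairing added after seeing the data, 169 and 29.

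With library size alone the sum of the 7 rows in GS115 was 10797 and 12514 CPM. Its mean was 11656 ± 1214 CPM, against 11970 ± 297 CPM with TMM scaling (SD, n = 2 each). The mean in Dmxr1 was then 65.5% of that in GS115, against 62.0%. Shares depend by construction on the rows summed. Within the dehydrogenases the mean shares in Dmxr1 and GS115 were 1.10% and 21.0% for ALD6-1, 55.4% and 18.2% for ALD6-2, 39.3% and 58.0% for ALD4, 2.99% and 1.41% for ALD2, and 1.17% and 1.34% for ACIB2EUKG772538. Within the synthetases they were 74.2% and 83.3% for ACS1, and 25.8% and 16.7% for ACS2. Without ACIB2EUKG772538, ACS1 held 34.4% in Dmxr1. Without ALD6-1, a choice added after seeing the data, ACS1 held 34.4% in Dmxr1 and 24.6% in GS115, and the GS115 shares were 16.3% for ALD6-2, 51.8% for ALD4, 1.26% for ALD2, 1.19% for ACIB2EUKG772538 and 4.93% for ACS2. Shares per kilobase were not run because the table gives no gene length.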
